A study of Mus musculus with 4 samples.

Results

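Chemokines and their receptors were followed across the cell classes of mouse ventricles with and without wheel running and with and without a myocardial infarct. Members were taken by symbol: every CC, CXC and CX3C ligand and receptor gene, the 4 atypical receptors Ackr1 to Ackr4 and Ccrl2. Of 25906 genes in the count matrices 60 matched, and the 52 with at least 20 UMIs (unique molecular identifiers, each counting 1 captured RNA molecule) over the 4 libraries are described. They comprise 19 receptors and 33 ligands. Just inside the limit stood Cxcl3 with 21 UMIs and Ccl1, Ccl21d and Ccl26 with 22 each, and just outside it stood Ccl17 with 18, Ccr3 with 11 and Ccl22 with 7. The other 5 members had 1 to 4 UMIs.

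Nuclei came from frozen ventricles of wild-type C57BL/6J mice of both sexes, 8 weeks old at the start, sorted by Hoechst signal and loaded in 1 well per group. The running infarct library pooled 4 hearts from mice that ran on wheels for 16 weeks and were killed 2 weeks after infarct surgery. The sedentary infarct library pooled 4 hearts from mice without wheels, taken 2 weeks after the same surgery. The running library pooled 2 hearts after 16 weeks of running, and the sedentary library pooled 2 hearts of mice that neither ran nor had surgery. Neither library without an infarct is labelled as sham-operated, so surgery and infarct cannot be told apart. With 1 library per group there is no replicate and no test of any difference: intervals below are 95% intervals for counting error only, and a difference beyond them is a difference between those libraries, each of pooled animals.

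Chemokines are small secreted proteins that steer the migration of leukocytes through G protein-coupled receptors, and many bind to matrix and endothelial surfaces to form gradients. In the injured heart the CCL2 and CCR2 axis is known for recruiting monocytes from blood, CX3CR1 for patrolling monocytes and resident macrophages, and CXCL12 for holding CXCR4-bearing cells. Atypical receptors such as ACKR2, ACKR3 and ACKR4 bind chemokines without classical G protein signalling and clear them from tissue.

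After filtering, 4710 nuclei of the running infarct, 3123 of the sedentary infarct, 5826 of the running and 5112 of the sedentary library were kept, with library medians of 2910.5 to 4214 UMIs per barcode. Clusters were named from marker genes that hold no member, though the dendritic list holds the chemokine receptor gene Xcr1. No member took part in the clustering, so the level of a member in a class did not shape that class. Of 18771 nuclei, 14932 fell into 15 named classes, and 11 of these with at least 100 nuclei are described. The other 3839 nuclei lay in clusters of low depth, of mixed markers or of no passing name, and they held 42.7% of the members' UMIs. One of these, a mixed cluster of 744 nuclei led by macrophage genes with a median of 16191 UMIs, matters for macrophage values and is given beside them. Pairs of libraries shared 2 to 12 barcodes. Nuclei called Y-positive, from 2 or more UMIs of Y-linked genes, made up 17.2% and 16.8% of named nuclei in the running infarct and sedentary infarct libraries, against 35.7% and 32.2% in the running and sedentary libraries. The part that the mix of sexes plays in the infarct comparisons was not tested. Values for nuclei with at least 2 and with no Y-linked UMIs are given below. These sets rest on UMI counts, and a shallow male nucleus can lack such UMIs, so they do not equal the sexes.

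Levels are in CPM, counts per 1000000: a member's UMIs in a class over all UMIs of that class without mitochondrially encoded genes, scaled to that total. They compare classes and libraries for 1 gene and are not adjusted for length, so no order between genes is drawn. A lower level can mean fewer RNA molecules per cell or fewer cells of a subtype, and the pooled sums cannot tell these apart.

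Some members cannot be read alone. In the reference annotation (GRCm38, an older build than the one used for counting), 15 of the 52 overlap another gene of the matrix and 8 lie wholly within one. Most overlaps are on the opposite strand, but those of Ackr1 with Cadm3 and of Cx3cr1 with Csrnp1, Gorasp1 and Xirp1 are on the same strand. The strand setting of the counting is not given in the sources used here. Ackr4 lies within Acad11, a mitochondrial acyl-CoA dehydrogenase gene, and the ratio of their CPM ran only from 0.810 to 1.75 over 11 classes. Cxcr6, a receptor of effector T cells, lies within the autophagosome transport gene Fyco1, at 0.169 to 0.585 of its level. Ccr9, a receptor of gut-homing lymphocytes, stood at 0.393 to 0.891 of Lztfl1, and Ccl25, its ligand, at 0.375 to 0.652 of Elavl1. These 4 members are among the 8 with the most UMIs, each with 3787 or more, and their UMIs and those of the overlapping genes cannot be told apart. Cxcl16 overlaps 552 bases of Zmynd15 and stood at 1.07 to 2.32 times its level over 8 classes, and both peaked in macrophage-like nuclei (171 and 87.2 CPM) with endocardial-like nuclei next (64.6 and 47.3 CPM), so Cxcl16 levels between classes are uncertain as well. Cx3cr1 stood at 1.76 times the overlapping gene Wdr48 in macrophage-like nuclei and at 0.348 times in the lowest class. Its macrophage excess is thus not shared by Wdr48. Csrnp1, Gorasp1 and Xirp1, wholly within Cx3cr1 on its strand, stood at 3.22, 3.80 and 4.97 CPM in macrophage-like nuclei. Cx3cr1 stood at 22.8 to 39.4 CPM in every other class, the lowest being cardiomyocyte-like nuclei, where Xirp1 stood at 22.0 CPM. The part of these genes in the Cx3cr1 counts was not tested. Ccl19 and Ccl21a lie wholly within 4930578G10Rik and Ccl2 lies wholly within Gm17268, each on the opposite strand, so their counts are uncertain as well. Ccl21a, Ccl21b and Ccl21d are near-identical copies whose UMIs are uncertain between them.

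**Figure D1:**
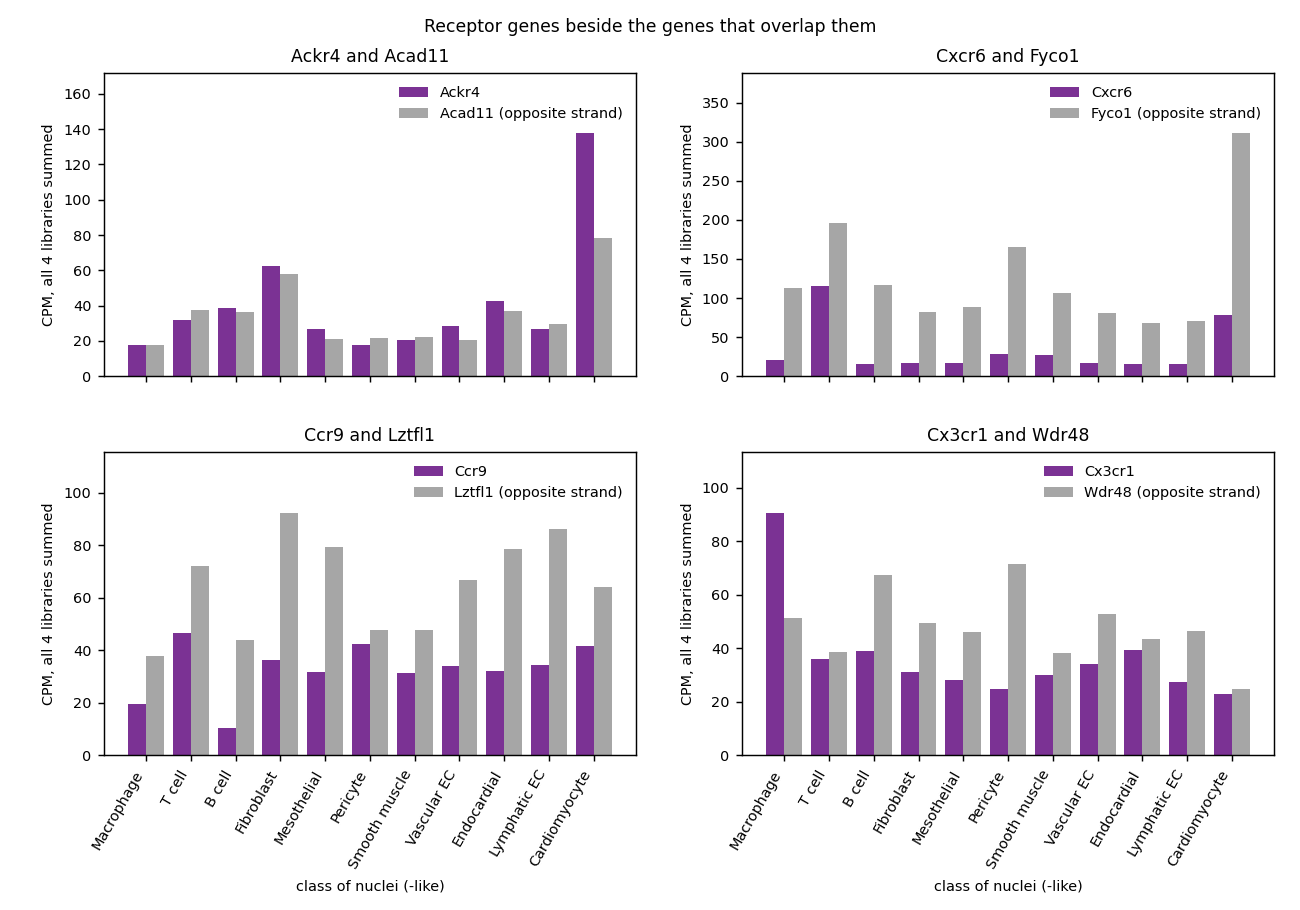
CPM summed over the 4 libraries (vertical axis) of Ackr4, Cxcr6, Ccr9 and Cx3cr1 (purple bars) and of the gene that overlaps each on the opposite strand (grey bars) in 11 classes of nuclei. Ackr4 and Acad11 stand at like levels from class to class, while Cx3cr1 exceeds Wdr48 in macrophage-like nuclei (90.7 against 51.5 CPM).

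Across the 11 classes macrophage-like nuclei held the highest level of 19 of the 52 members, T cell-like nuclei of 9, fibroblast-like nuclei of 6 and B cell-like and lymphatic endothelial-like nuclei of 4 each. Pericyte-like and vascular endothelial-like nuclei had 3 each, and cardiomyocyte-like and smooth muscle-like nuclei 2 each. For 13 members, 6 of them highest in T cell-like and 3 in pericyte-like nuclei, that class held fewer than 10 of their UMIs, so their place is uncertain. The counts of highest classes have no share over all genes beside them and only describe where the members lie. Ccr2, a receptor of inflammatory monocytes, stood at 185 CPM in macrophage-like and 134 CPM in T cell-like nuclei, and no class outside the leukocytes exceeded 4.5 CPM. Ccr1, a further receptor of inflammatory CC ligands, stood at 20.2 CPM in macrophage-like nuclei and at 1.03 CPM or less elsewhere. Homing receptors of B cells stood highest in B cell-like nuclei: Cxcr5, which guides cells to follicles, at 90.8 CPM, Ccr6 at 46.7 CPM and the lymph node receptor Ccr7 at 33.7 CPM. Cxcr4, the receptor for CXCL12, was low throughout, at 15.8 CPM in macrophage-like, 15.6 CPM in B cell-like and 6.5 CPM in vascular endothelial-like nuclei.

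The atypical receptors Ackr3 and Ackr2 were highest in lymphatic endothelial-like nuclei, while Ackr4, which cannot be told apart from Acad11, was highest in cardiomyocyte-like nuclei at 138 CPM. Ackr3, which takes up CXCL12 and is the most counted member with 13473 UMIs, stood at 197 CPM in lymphatic endothelial-like, 174 CPM in fibroblast-like, 159 CPM in endocardial-like and 125 CPM in vascular endothelial-like nuclei, and at 21.4 CPM in macrophage-like nuclei. Ackr2, a scavenger of inflammatory CC ligands known from lymphatic vessels, stood at 126 CPM in lymphatic endothelial-like nuclei, and the next class, vascular endothelial-like, had 12.9 CPM. Ackr1, known from venular endothelium and red cells, did not exceed 2.75 CPM in any class with the libraries summed.

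Ligands were spread between macrophages, stroma and vessels. Cxcl16, the ligand of CXCR6, stood at 171 CPM in macrophage-like and 64.6 CPM in endocardial-like nuclei. Ccl6, a mouse CC ligand of myeloid cells, stood at 105 CPM in macrophage-like nuclei, and its relatives Ccl9 and Ccl12 at 44.8 and 37.7 CPM. Cxcl12 stood at 168 CPM in vascular endothelial-like and 80.7 CPM in pericyte-like nuclei, against 10.7 to 38.9 CPM in the other classes. Ccl21a, the lymphatic ligand of CCR7, stood at 894 CPM in lymphatic endothelial-like nuclei and at 46.3 CPM in vascular endothelial-like nuclei, the next class. Ccl5, a ligand of effector lymphocytes, stood at 64.1 CPM in T cell-like nuclei and 3.5 CPM in macrophage-like nuclei. The neutrophil attractant Cxcl1 and the homeostatic chemokine Cxcl14 were highest in fibroblast-like nuclei, at 23.9 and 17.9 CPM.

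**Figure D2:**
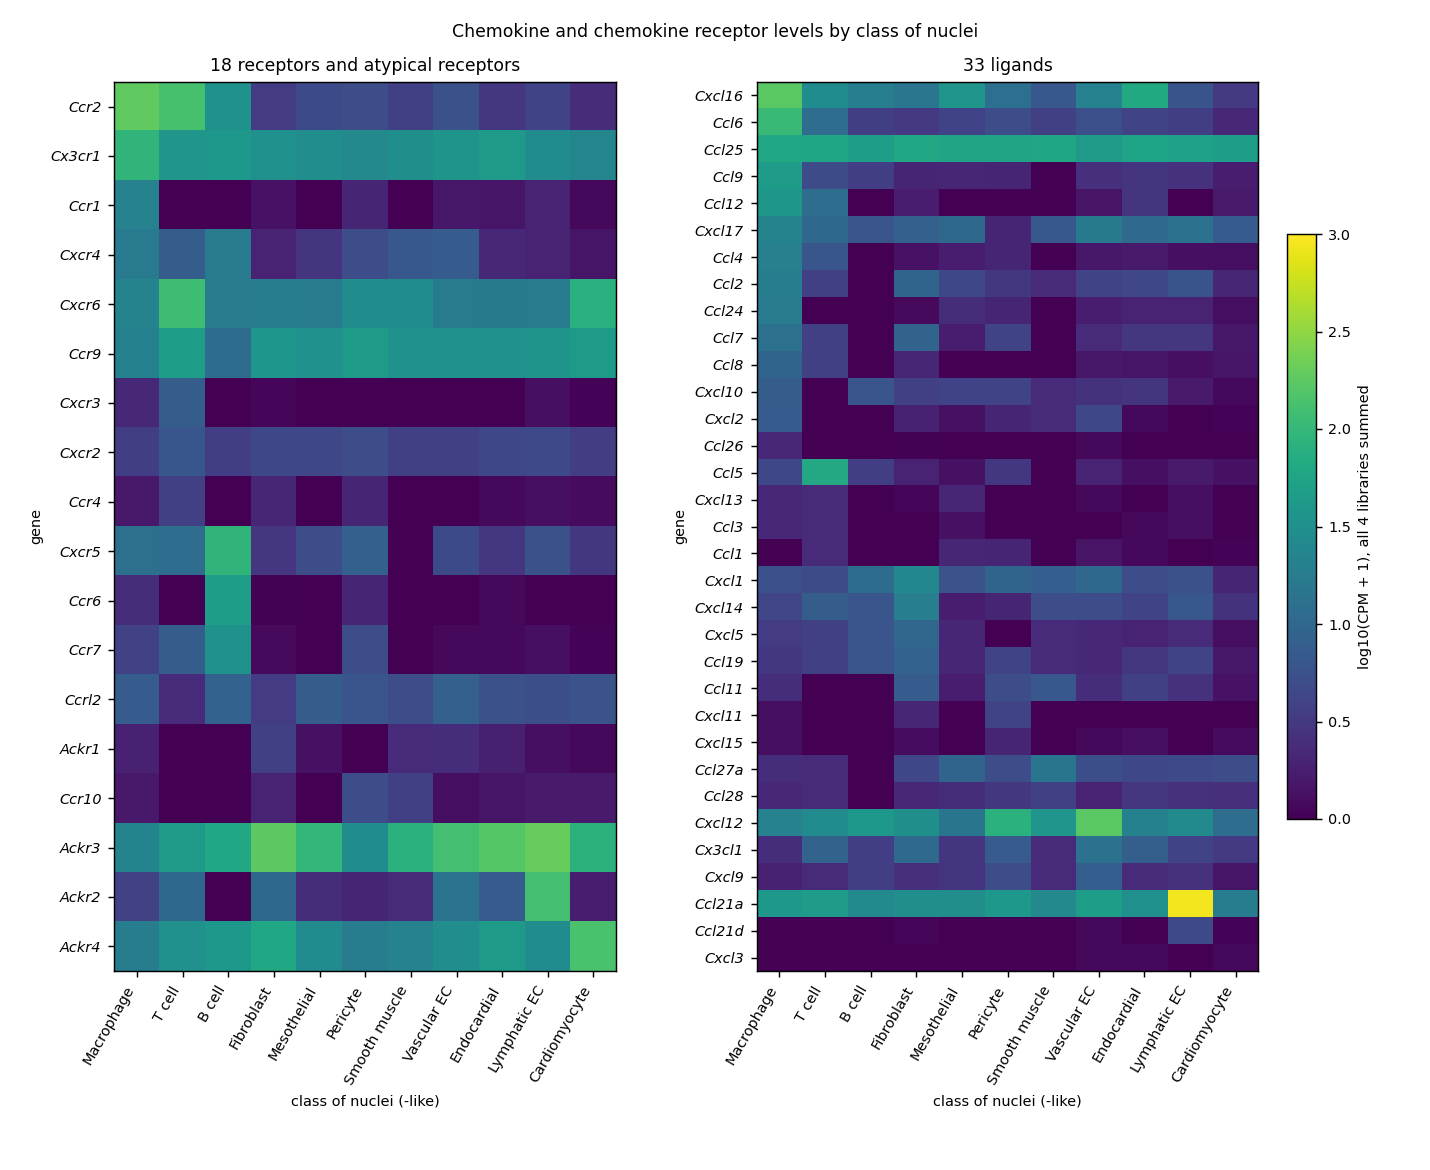
Level of 18 receptors (left) and 33 ligands (right) in 11 classes of nuclei, as log10 of CPM + 1 with the 4 libraries summed (colour). Ccr2 and Cxcl16 peak in macrophage-like nuclei, Ackr3 and Ackr2 in lymphatic endothelial-like nuclei and Ccl21a stands out in lymphatic endothelial-like nuclei at 894 CPM.

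Comparisons between libraries used the 8 classes with at least 50 nuclei in every library and the member and class pairs with at least 20 UMIs in both libraries together. A pair that passes this limit through 1 library alone must differ, so the counts are read beside the same counts over all genes. Running infarct over running gave 18 pairs at least 2-fold higher and 21 at least 2-fold lower of 117 (15.4% and 17.9%), against 4.34% and 5.38% of all gene and class pairs. Sedentary infarct over sedentary gave 7 higher and 16 lower of 104 (6.73% and 15.4%), against 4.44% and 4.28%. The comparisons of running gave no more in either direction, beside lower shares of all pairs. Running infarct over sedentary infarct had 7 higher and 4 lower of 105 (6.67% and 3.81%), against 2.61% and 2.59% of all pairs. Running over sedentary had 6 higher and 4 lower of 110 (5.45% and 3.64%), against 2.93% and 1.83%. Ccl21a alone, outside lymphatic endothelial-like nuclei, made up 6 of the 21 lower pairs of running infarct over running and 3 of the 6 higher pairs of running over sedentary, and it is treated apart below. Its pairs with macrophage-like and fibroblast-like nuclei are also among the lower ones of sedentary infarct over sedentary.

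In macrophage-like nuclei Ccr2 and Cx3cr1 stood higher and Ccl9 and Ccl24 lower in both infarct libraries. These nuclei made up 13.7% of kept nuclei in the running infarct library (12.7 to 14.7) and 7.56% in the sedentary infarct library (6.65 to 8.54), against 3.36% in the running (2.92 to 3.86) and 2.88% in the sedentary library (2.43 to 3.37). In running infarct over running, 8 of 23 members measured in them were at least 2-fold higher and 5 lower, against 6.29% and 4.75% of all genes. In sedentary infarct over sedentary, 3 of 21 were higher and 6 lower, against 6.15% and 3.64%. Ccl21a, treated apart below, is among the lower members of both comparisons.

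Ccr2, the receptor of recruited monocytes, stood at 219 CPM (196 to 243) in the running infarct and 247 CPM (214 to 283) in the sedentary infarct library, against 81.6 CPM (59.5 to 109) in the running and 77.8 CPM (54.2 to 108) in the sedentary library. Both infarct libraries lay above both others with no overlap of intervals, at 2.68-fold for running infarct over running (1.96 to 3.74) and 3.17-fold for sedentary infarct over sedentary (2.20 to 4.68). Of 644, 236, 196 and 147 macrophage-like nuclei, 105 (16.3%), 38 (16.1%), 11 (5.61%) and 10 (6.8%) held a Ccr2 UMI in the running infarct, sedentary infarct, running and sedentary libraries, and 12.5, 10.5, 4.02 and 3.88% did once each nucleus was thinned to 1000 UMIs. In cardiomyocyte-like nuclei, which should lack the gene, the unthinned shares were 1.67, 1.86, 0.924 and 0.257% at medians of 2771.5, 9473, 8495 and 8414 UMIs, against 2208.5, 2977, 2858 and 2751 UMIs in macrophage-like nuclei. The size of the Ccr2 difference depended on which nuclei were counted. Among nuclei without Y-linked UMIs the levels were 179 and 246 CPM in the running infarct and sedentary infarct libraries, against 24.0 and 14.3 CPM, on 5 and 3 UMIs, in the running and sedentary libraries, and among nuclei with at least 2 such UMIs 366 and 269 CPM, against 161 and 195 CPM. Counting the mixed macrophage cluster, where Ccr2 stood at 38.8 and 29.1 CPM, against 13.6 CPM in both libraries without infarct, left a log2 ratio of 0.57 for sedentary infarct over sedentary in place of 1.66. A limit of 5% mitochondrial UMIs left 22 of the 196 running nuclei and a log2 ratio of 0.21 for running infarct over running in place of 1.42.

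Cx3cr1, the fractalkine receptor, stood at 125 CPM (108 to 143) in the running infarct and 84.3 CPM (65.4 to 107) in the sedentary infarct library, against 43.5 CPM (27.9 to 64.8) in the running and 37.8 CPM (22.0 to 60.5) in the sedentary library. It was 2.87-fold higher in running infarct than in running (1.87 to 4.58) and 2.23-fold higher in sedentary infarct than in sedentary (1.30 to 4.05), and 1.48-fold higher in running infarct than in sedentary infarct (1.12 to 1.98). The overlapping gene Wdr48 stood at 53.4 and 62.0 CPM in the infarct libraries, against 39.9 and 40.0 CPM in the running and sedentary libraries. Xirp1, within Cx3cr1 on the same strand, stood at 7.45 and 4.96 CPM, against 0 and 2.22 CPM. In fibroblast-like nuclei Cx3cr1 stood at 30.7 and 24.8 CPM in the infarct libraries, against 32.1 and 36.2 CPM in the running and sedentary libraries. These last values lie within the macrophage-like intervals of the same libraries. With the mixed cluster counted, where Cx3cr1 stood at 39.7 to 50.8 CPM in every library, the log2 ratios shrank to 0.57 in place of 1.52 for running infarct over running and to 0.12 in place of 1.16 for sedentary infarct over sedentary.

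Cxcl16, which tethers CXCR6-bearing T cells, stood at 209, 159, 112 and 131 CPM in the running infarct, sedentary infarct, running and sedentary libraries, and was 1.86-fold higher in running infarct than in running (1.42 to 2.48). Its overlapping gene Zmynd15 stood at 84.4, 89.2, 92.5 and 86.7 CPM in the same order and did not share that difference. Ccr1 ran from 13.3 to 23.0 CPM with overlapping intervals in all 4 libraries. Cxcr4 had 22, 23, 1 and 8 UMIs, and its ratio of running infarct over running, 7.53, rests on that single UMI (interval 1.22 to 311).

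Among the macrophage ligands Ccl9 and Ccl24 stood lower in both infarct comparisons. Ccl9, a mouse CCR1 ligand, stood at 26.1 CPM (18.8 to 35.2) in the running infarct and 40.9 CPM (28.2 to 57.4) in the sedentary infarct library, against 70.8 CPM (50.3 to 96.7) in the running and 86.7 CPM (61.7 to 119) in the sedentary library. That is 2.71-fold lower in running infarct than in running (1.71 to 4.30) and 2.12-fold lower in sedentary infarct than in sedentary (1.30 to 3.48). The eosinophil attractant Ccl24 stood at 9.93 and 11.2 CPM in the infarct libraries, against 27.2 and 31.1 CPM in the running and sedentary libraries, 2.74-fold (1.26 to 5.92) and 2.79-fold lower (1.13 to 7.31). Ccl6 stood at 75.1 CPM in the running infarct, 118 CPM in the sedentary infarct, 172 CPM in the running and 109 CPM in the sedentary library. It was 2.29-fold lower in running infarct than in running (1.73 to 3.03), whereas the sedentary infarct and sedentary intervals overlapped (95.3 to 144 and 80.6 to 144 CPM). Cxcl17, a mucosal chemokine, stood at 17.4 CPM in the sedentary infarct and 48.9 CPM in the sedentary library, 2.82-fold lower (1.38 to 5.96).

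Acute-phase monocyte attractants were rare at this time. Ccl2, the main CCR2 ligand, had 24, 22, 3 and 9 UMIs in macrophage-like nuclei of the running infarct, sedentary infarct, running and sedentary libraries, Ccl7 had 11, 13, 2 and 14, Ccl8 had 20, 3, 1 and 4, and Ccl4 had 32, 23, 5 and 5. Gm17268, which holds Ccl2 on the opposite strand, stood at 57.7, 52.1, 36.3 and 51.2 CPM in the same order, and its part in the Ccl2 counts was not tested. For running infarct over running, Ccl2 was 2.74-fold higher (0.831 to 14.2), Ccl4 2.19-fold (0.847 to 7.20) and Ccl8 6.84-fold on 1 UMI of the running library (1.09 to 284), so these ligands are 3 of the 8 higher members of that comparison while the intervals of Ccl2 and Ccl4 include no difference. In sedentary infarct and sedentary their intervals overlapped, and Ccl3 had 2, 2, 0 and 0 UMIs. Ccl12, the mouse relative of CCL2, gave no stable direction. It stood at 44.1, 28.5, 14.5 and 60.1 CPM, with 17 of its 27 UMIs of the sedentary library in 1 nucleus, and its log2 ratio for sedentary infarct over sedentary, -1.08, turned to 0.74 with at most 5% mitochondrial UMIs and to 0.37 in nuclei without Y-linked UMIs. Cxcl10, an interferon-induced ligand of CXCR3, had 23 UMIs in macrophage-like nuclei of the running infarct library and 0 in those of the other 3. Over all barcodes Cxcl10 had 75, 36, 58 and 57 UMIs in the running infarct, sedentary infarct, running and sedentary libraries. The 23 macrophage-like UMIs lay in 6 nuclei, 11 of them in 1. Against 3 counts in each other library, Cxcl10 in this class was at least 3.84-fold higher than in sedentary infarct and at least 2.62-fold higher than in running. Cxcl2 had 14, 7, 1 and 0 UMIs.

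**Figure D3:**
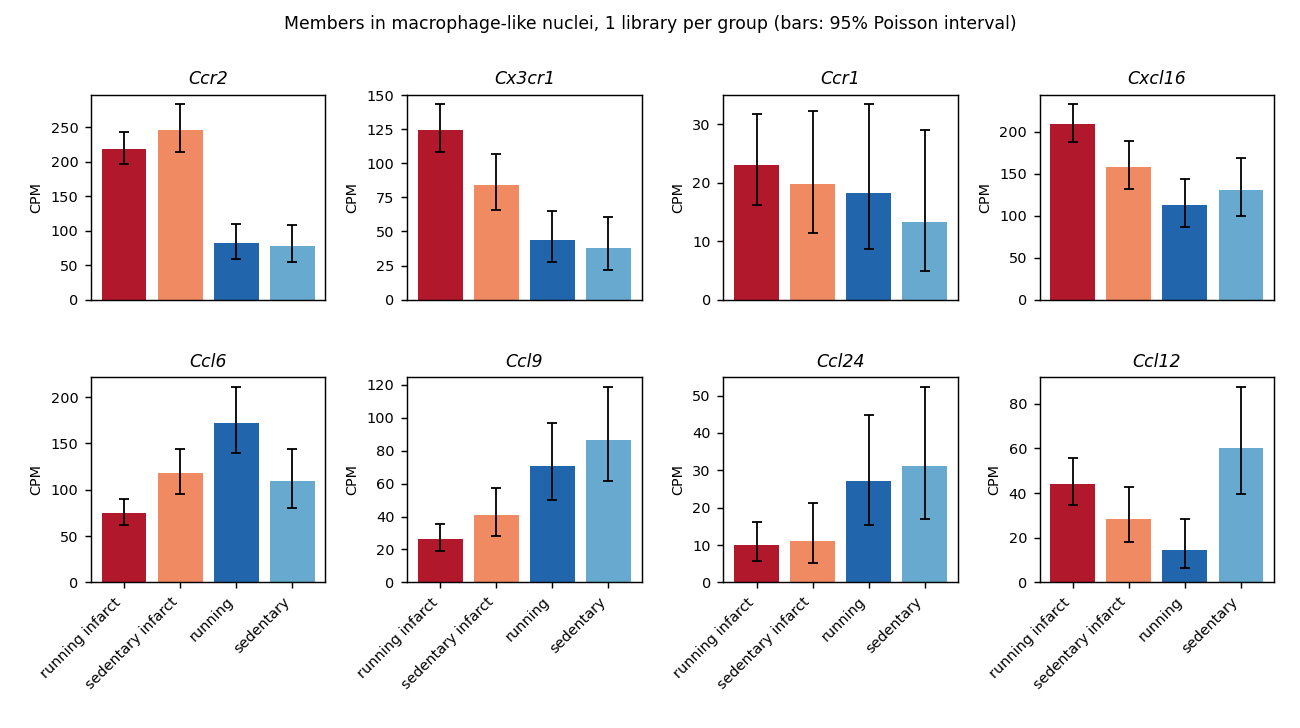
CPM (vertical axes) of 8 members in macrophage-like nuclei of the running infarct, sedentary infarct, running and sedentary libraries, 1 library per bar with its 95% Poisson interval for counting error. Ccr2 and Cx3cr1 are higher in both infarct libraries, Ccl9 and Ccl24 lower in both, and Ccl12 shows no common direction.

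The promoters of 3 macrophage members are shown because their levels differed in different ways and they hold different sets of known control motifs. In macrophage-like nuclei Ccr2 was higher and Ccl9 lower in both infarct libraries. Cxcl10 UMIs in macrophage-like nuclei came from the running infarct library alone, though other classes held the gene in every library. Each run holds the 250 bases before the gene's start from RefSeq, build GRCm38.p6, read 5' to 3' on the gene's strand: Ccr2 at chr9:124101933-124102182 on the plus strand, Cxcl10 at chr5:92348890-92349139 on the minus strand and Ccl9 at chr11:83578637-83578886 on the minus strand. Capitals mark matches to TATAAA, to the kappa B motif (GGG and TTCC with 3 free bases between them) or to the AP-1 motif TGANTCA, searched on both strands. The PU.1 core GAGGAAG, searched as well, was in none of the printed runs.
Ccr2: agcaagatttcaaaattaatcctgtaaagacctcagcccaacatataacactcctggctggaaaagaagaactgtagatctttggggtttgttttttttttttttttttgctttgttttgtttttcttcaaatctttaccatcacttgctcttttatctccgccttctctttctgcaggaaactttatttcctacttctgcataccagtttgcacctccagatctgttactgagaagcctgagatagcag
Cxcl10: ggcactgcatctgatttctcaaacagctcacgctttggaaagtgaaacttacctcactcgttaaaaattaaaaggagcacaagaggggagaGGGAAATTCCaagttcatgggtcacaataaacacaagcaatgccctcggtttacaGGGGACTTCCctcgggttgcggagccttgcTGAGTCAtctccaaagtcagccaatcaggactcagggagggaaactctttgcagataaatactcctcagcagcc
Ccl9: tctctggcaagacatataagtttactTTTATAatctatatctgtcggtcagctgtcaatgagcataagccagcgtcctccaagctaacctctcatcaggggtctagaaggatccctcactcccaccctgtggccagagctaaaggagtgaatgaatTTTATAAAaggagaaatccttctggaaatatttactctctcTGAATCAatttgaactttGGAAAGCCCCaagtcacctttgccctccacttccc
Cxcl10 held kappa B matches that begin 159 and 104 bases before its start and an AP-1 match at 74. Ccl9 held TATAAA matches at 224 and 94 on the reverse strand and at 92 on the forward strand, where the last pair overlap, a reverse kappa B match at 35 and an AP-1 match at 53. Ccr2 held no match. Of 32851 promoter windows of this length, 12.4% held TATAAA, 4.65% the kappa B motif, 6.75% the AP-1 motif and 10.6% the PU.1 core, and of the 43 windows of 37 members, some of which have several starts, 12, 7, 4 and 6 did. A match is a run of letters, not a measured site.

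Macrophage-like nuclei split into 3 clusters at a finer resolution, and the classes of the libraries were made of different ones. The cluster led by Ms4a7 and Gpnmb held 37.3% and 34.7% of macrophage-like nuclei in the running infarct and sedentary infarct libraries, against 5.61% and 5.44% in the running and sedentary libraries. The cluster led by F13a1 and Cd163, genes known from resident macrophages, held 22.0% and 38.1%, against 55.1% and 63.3%. The rest lay in a cluster of lower depth led by Lilrb4a and Ctsc.

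Ccr2 was concentrated in the Ms4a7 cluster of every library. It stood at 411 CPM there (375 to 448) and at 37.4 CPM (28.6 to 48.0) in the F13a1 cluster over all libraries. In the Ms4a7 cluster it stood at 345 CPM in the running infarct and 486 CPM in the sedentary infarct library, against 718 CPM (506 to 990) and 630 CPM (419 to 911) from only 11 and 8 nuclei of the running and sedentary libraries. Within the F13a1 cluster Ccr2 stood at 49.4 CPM (31.96 to 72.9) in the running infarct and 65.4 CPM (42.7 to 95.8) in the sedentary infarct library, against 7.72 CPM (1.59 to 22.6) in the running and 20.6 CPM (8.27 to 42.4) in the sedentary library, so a lower-level difference remained there. The higher class level of Ccr2 after infarct thus moved with the share of the Ms4a7 cluster, and the part of each was not tested.

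Other members divided between the same clusters. Cxcl16 stood at 271 CPM in the Ms4a7 cluster and 100.4 CPM in the F13a1 cluster. Within the F13a1 cluster it stood at 69.1 CPM (48.2 to 96.2) and 80.5 CPM (55.0 to 114) in the infarct libraries, against 126 CPM (93.3 to 167) and 141 CPM (104 to 187) in the running and sedentary libraries, the reverse of the class level but with overlapping intervals. Ccl6, Ccl9 and Ccl24 lay the other way, at 159, 64.3 and 28.8 CPM in the F13a1 cluster against 52.7, 27.6 and 0 CPM in the Ms4a7 cluster, where 0 Ccl24 UMIs were found in 341 nuclei. Within the F13a1 cluster Ccl24 showed no difference beyond its intervals, at 27.7, 22.6, 30.9 and 35.3 CPM in the running infarct, sedentary infarct, running and sedentary libraries, and Ccl6 stood at 152, 166, 193 and 121 CPM. Ccr1 in the F13a1 cluster stood at 51.4, 30.2, 23.2 and 14.7 CPM, and the intervals of the running infarct (33.6 to 75.3) and sedentary libraries (4.77 to 34.3) just overlap.

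Markers of other cell types were present in macrophage-like nuclei of all libraries. The summed level of the 12 macrophage markers was 12922 and 13399 CPM in the running infarct and sedentary infarct libraries, against 19274 and 19546 CPM in the running and sedentary libraries. That of the 10 cardiomyocyte markers was 2388 and 2339 CPM, against 3554 and 3376 CPM. Their part in the member levels was not tested.

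In fibroblast-like nuclei more members were lower than higher after infarct in both comparisons. In running infarct over running 2 of 27 measured members were at least 2-fold higher and 7 lower, against 4.82% and 4.74% of all genes, and in sedentary infarct over sedentary 2 of 25 were higher and 4 lower, against 4.44% and 3.59%. The lower members include Ccl21a in both comparisons, which is treated apart below. The median log2 ratio of the measured members was -0.55 and -0.25 in the running and sedentary comparisons, beside -0.06 and -0.02 over all genes. The scavenging receptor gene Ackr3 stood at 117 CPM (106 to 128) in the running infarct and 87.4 CPM (79.1 to 96.4) in the sedentary infarct library, against 215 CPM (203 to 227) in the running and 244 CPM (231 to 258) in the sedentary library. It was 1.84-fold lower in running infarct than in running (1.65 to 2.06) and 2.79-fold lower in sedentary infarct than in sedentary (2.49 to 3.13), on 402 to 1274 UMIs per library.

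Stromal ligands were lower as well. Cxcl14 stood at 7.40 CPM in both infarct libraries (4.87 to 10.8 and 5.12 to 10.3), against 25.7 CPM (21.7 to 30.1) in the running and 26.0 CPM (21.8 to 30.8) in the sedentary library, 3.47-fold lower (2.29 to 5.44) and 3.52-fold lower (2.40 to 5.29). Ccl11, the eosinophil attractant eotaxin, had 0 and 4 UMIs in the infarct libraries, against 67 and 53 UMIs in the running and sedentary libraries. It was at least 13.8-fold lower in running infarct than in running, set against 3 counts, and 11.9-fold lower in sedentary infarct than in sedentary (4.39 to 45.3). Cxcl1 stood at 5.48 CPM (3.35 to 8.46) in the running infarct, 13.1 CPM (9.96 to 16.8) in the sedentary infarct, 42.7 CPM (37.6 to 48.3) in the running and 25.03 CPM (20.9 to 29.8) in the sedentary library, with none of the 4 intervals overlapping. It was 7.80-fold lower in running infarct than in running (4.94 to 12.98) and 1.92-fold lower in sedentary infarct than in sedentary (1.40 to 2.65). The lymphoid ligand Ccl19 stood at 6.57 and 4.35 CPM, against 10.8 and 8.60 CPM, and Ccl7 at 5.75 and 4.57 CPM, against 11.5 and 8.80 CPM. Ccl19 lies within 4930578G10Rik on the opposite strand, which stood at 376 and 309 CPM in these nuclei, against 664 and 572 CPM. The part of that gene in the Ccl19 counts was not tested. With at most 5% mitochondrial UMIs, which left 133 of 1519 running fibroblast-like nuclei, the log2 ratio of Cxcl14 for running infarct over running was -0.64 in place of -1.79 and that of Cxcl1 -2.00 in place of -2.96.

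A smaller group was higher. Cx3cl1, the membrane-bound ligand of CX3CR1, stood at 12.9 CPM (9.46 to 17.1) in the running infarct and 15.4 CPM (12.1 to 19.5) in the sedentary infarct library, against 6.25 CPM (4.40 to 8.61) in the running and 5.67 CPM (3.80 to 8.14) in the sedentary library, 2.06-fold (1.31 to 3.26) and 2.72-fold higher (1.75 to 4.35). Cxcl12 stood at 39.2, 30.7, 26.8 and 27.0 CPM in the running infarct, sedentary infarct, running and sedentary libraries and was 1.46-fold higher in running infarct than in running (1.16 to 1.84). Cxcl16 stood at 22.2, 12.2, 11.1 and 13.5 CPM, 1.99-fold higher in running infarct than in running (1.42 to 2.80), beside 12.3, 6.74, 8.27 and 7.63 CPM of Zmynd15. The few Ccr2 UMIs of fibroblast-like nuclei, 22, 16, 4 and 4, moved the same way as the macrophage share of the libraries. The summed macrophage markers in these nuclei stood at 673 and 592 CPM, against 587 and 586 CPM, and their part in the Ccr2 UMIs was not tested. Ccl2 stood at 9.86 and 10.2 CPM in the infarct libraries, against 7.60 and 6.45 CPM, with overlapping intervals. Its overlapping gene Gm17268 stood at 28.2 and 16.1 CPM, against 27.2 and 13.1 CPM.

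**Figure D4:**
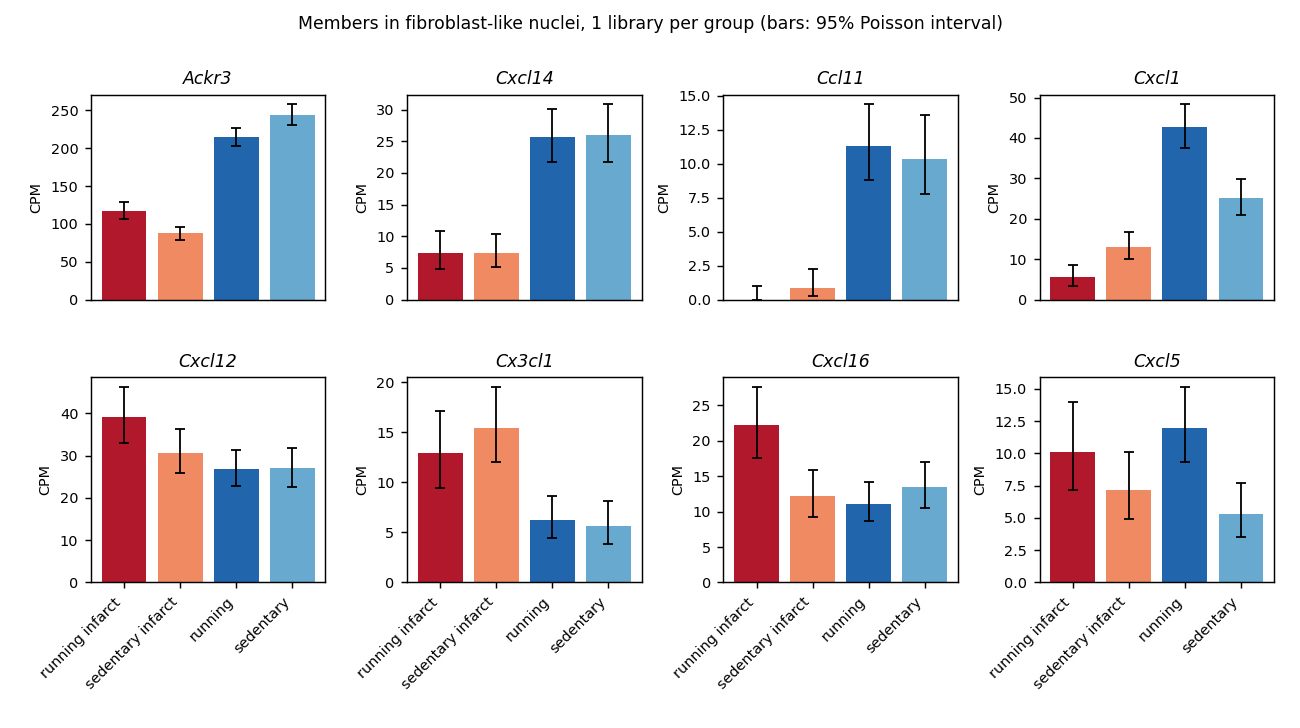
CPM (vertical axes) of 8 members in fibroblast-like nuclei of the running infarct, sedentary infarct, running and sedentary libraries, 1 library per bar with its 95% Poisson interval for counting error. Ackr3, Cxcl14, Ccl11 and Cxcl1 are lower in both infarct libraries, and Cx3cl1 is higher in both.

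The promoters of 3 of the lower members are shown for comparison with those of the macrophage members, with the same source, length and marks: Ackr3 at chr1:90203730-90203979 on the plus strand, Cxcl14 at chr13:56296552-56296801 on the minus strand and Cxcl1 at chr5:90890995-90891244 on the plus strand.
Ackr3: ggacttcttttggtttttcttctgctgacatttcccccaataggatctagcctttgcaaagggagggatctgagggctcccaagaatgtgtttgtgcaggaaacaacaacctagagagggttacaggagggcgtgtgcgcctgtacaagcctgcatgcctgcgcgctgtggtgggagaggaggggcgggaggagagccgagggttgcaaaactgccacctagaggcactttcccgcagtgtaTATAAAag
Cxcl14: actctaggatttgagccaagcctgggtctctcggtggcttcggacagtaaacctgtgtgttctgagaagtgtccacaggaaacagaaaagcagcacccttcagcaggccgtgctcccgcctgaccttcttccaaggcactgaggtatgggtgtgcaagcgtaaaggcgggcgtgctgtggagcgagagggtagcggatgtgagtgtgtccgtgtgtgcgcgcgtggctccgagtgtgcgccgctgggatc
Cxcl1: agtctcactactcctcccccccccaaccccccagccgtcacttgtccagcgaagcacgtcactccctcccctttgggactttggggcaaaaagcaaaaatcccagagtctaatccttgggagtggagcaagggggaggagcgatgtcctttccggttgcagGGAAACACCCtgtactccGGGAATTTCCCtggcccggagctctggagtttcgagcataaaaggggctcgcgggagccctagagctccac
Cxcl1 held kappa B matches at 89, 71 and 70 bases before its start, the last pair overlapping on opposite strands. Ackr3 held TATAAA at 8, and Cxcl14 held no match. None of the 4 motifs searched was shared by all 3 windows.

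Fibroblast clusters shifted between libraries as macrophage clusters did. A cluster led by Col12a1, Col11a1 and, further down, Postn, genes known from scar fibroblasts, held 43.4% and 29.5% of fibroblast-like nuclei in the running infarct and sedentary infarct libraries, against 2 nuclei and 1 nucleus in the running and sedentary libraries. A cluster led by Kcnip1 and Gfra1 held 19.1% and 28.6%, against 60.4% and 61.6%, and one led by Gfpt2 and Pi16 held 34.4% and 39.7%, against 37.9% and 37.2%.

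Ackr3 differed both between and within these clusters. It was highest in the Pi16 cluster, at 239 CPM (212 to 269) in the running infarct and 141 CPM (123 to 160) in the sedentary infarct library, against 376 CPM (352 to 402) in the running and 396 CPM (369 to 424) in the sedentary library. In the Col12a1 cluster it stood at 32.6 CPM (24.8 to 42.1) and 40.2 CPM (31.4 to 50.8) in the infarct libraries. The Gfra1 cluster gave no common direction, at 146 CPM in the running infarct and 111 CPM in the running library, and at 90.1 CPM in the sedentary infarct and 143 CPM in the sedentary library. Cxcl14 was highest in the Gfra1 cluster, at 22.2 and 23.0 CPM in the infarct libraries, against 35.6 and 37.0 CPM in the running and sedentary libraries, and at 3.32 and 1.72 CPM in the Col12a1 cluster. Ccl11 UMIs in the Pi16 cluster numbered 0 and 0, against 37 and 31, and in the Gfra1 cluster 0 and 4, against 30 and 22, with 0 in the 606 nuclei of the Col12a1 cluster. Cxcl1 was lower with infarct within the Pi16 cluster too, at 7.60 and 10.9 CPM, against 50.2 and 24.2 CPM. Cxcl12 and Cx3cl1 lay the other way: in the Col12a1 cluster Cxcl12 stood at 63.5 CPM (52.5 to 76.3) and 40.8 CPM (31.9 to 51.5), and Cx3cl1 at 17.7 and 28.7 CPM. In the Pi16 cluster Cxcl12 stood at 9.29 and 15.8 CPM in the infarct libraries, against 26.6 and 31.0 CPM in the running and sedentary libraries, so the class level hides a lower level in 1 cluster.

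**Figure D5:**
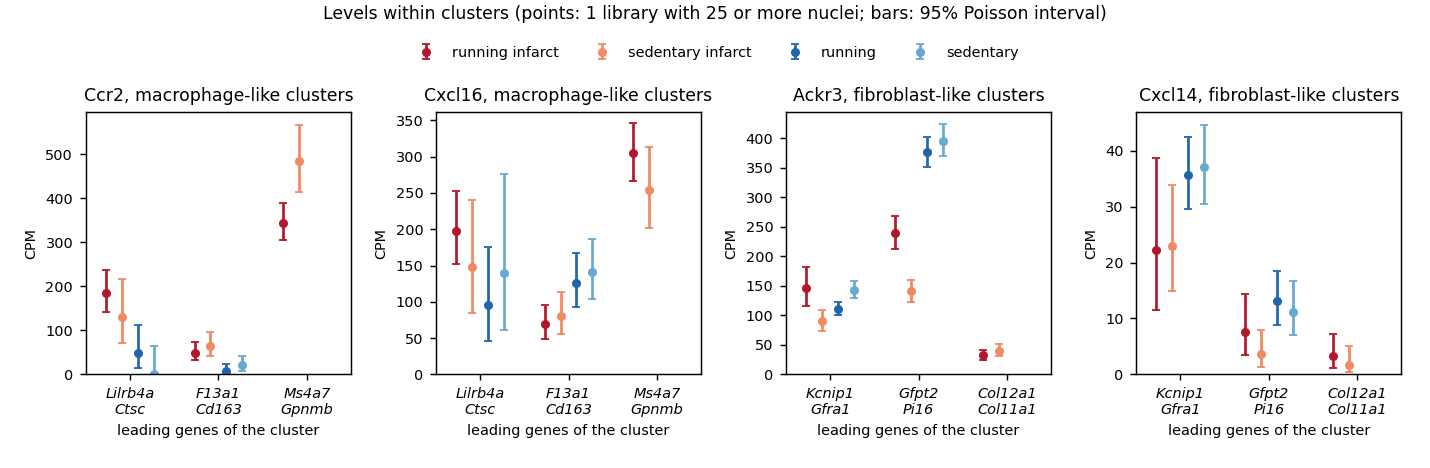
CPM (vertical axes) of Ccr2 and Cxcl16 in 3 macrophage-like clusters and of Ackr3 and Cxcl14 in 3 fibroblast-like clusters, named by their leading genes, with 1 point per library of 25 or more nuclei and its 95% Poisson interval for counting error. Ccr2 is concentrated in the Ms4a7 cluster (345 and 486 CPM in the infarct libraries), and Ackr3 in the Pi16 cluster is lower in both infarct libraries.

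Blood vessel classes had the highest Cxcl12 levels. In vascular endothelial-like nuclei it stood at 124 CPM (107 to 142) in the running infarct, 185 CPM (160 to 214) in the sedentary infarct, 170 CPM (154 to 188) in the running and 194 CPM (175 to 215) in the sedentary library. The running infarct library lay below the other 3, at 0.668 of sedentary infarct (0.545 to 0.818) and 0.727 of running (0.610 to 0.863). The main cluster, led by Ccdc85a, gave 115, 190, 205 and 243 CPM. The cluster led by the arterial genes Gja5 and Sema3g went the other way, at 174 CPM (110 to 261) and 164 CPM (93.9 to 267) in 47 and 35 nuclei of the infarct libraries, against 80.5 CPM (60.8 to 105) and 64.3 CPM (45.5 to 88.2) in 213 and 195 nuclei of the running and sedentary libraries. Pericyte-like nuclei stood at 48.7 and 61.3 CPM of Cxcl12 in the infarct libraries, against 92.7 and 104 CPM, with overlapping intervals on 8 to 30 UMIs. Cx3cl1 too differed between clusters, at 31.0 CPM in the Gja5 cluster (22.8 to 41.2) and 7.30 CPM in the main cluster (5.05 to 10.2).

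Other endothelial members were sparse. In running infarct over running 3 of 18 measured members of vascular endothelial-like nuclei were at least 2-fold higher and 3 lower, against 3.19% and 5.44% of all genes, and in sedentary infarct over sedentary 1 of 17 was higher and 4 lower, against 3.43% and 4.26%. Cxcl9, an interferon-induced CXCR3 ligand, had 4 and 3 UMIs in vascular endothelial-like nuclei of the infarct libraries, against 23 and 18 in the running and sedentary libraries, and was 4.18-fold lower in running infarct than in running (1.43 to 16.6). The interval for sedentary infarct over sedentary, 0.0611 to 1.11, included no difference. Cxcr4 stood at 14.6 CPM (9.33 to 21.7) in the running infarct and 2.21 CPM (0.716 to 5.15) in the running library, 6.60-fold higher (2.47 to 22.1), and at 8.82 and 3.53 CPM in the sedentary infarct and sedentary libraries with overlapping intervals. Ackr2 stood at 9.71 CPM in the running infarct, 28.4 CPM (19.0 to 40.8) in the sedentary infarct, 7.94 CPM in the running and 13.1 CPM (8.57 to 19.2) in the sedentary library, 2.17-fold higher in sedentary infarct than in sedentary (1.23 to 3.83) but with a log2 ratio of 0.49 in place of 1.12 when nuclei were weighted equally. Ccr2 in these nuclei, at 9.71 CPM in the running infarct library against 2.21 CPM in the running library, stood beside summed macrophage markers of 973 and 700.3 CPM, whose part was not tested.

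Lymphatic endothelial-like nuclei, 129, 76, 272 and 190 per library, had less Ccl21a in both infarct libraries. Ccl21a stood at 591 CPM (528 to 660) in the running infarct and 800.1 CPM (708 to 901) in the sedentary infarct library, against 967 CPM (914 to 1021) in the running and 1012 CPM (945 to 1083) in the sedentary library, which is 0.611 of running (0.539 to 0.692) and 0.791 of sedentary (0.687 to 0.908). The overlapping gene 4930578G10Rik stood at 457 CPM in this class with the libraries summed, and its part in these Ccl21a levels was not tested. Ackr2 stood at 163, 124, 115 and 119 CPM, with overlapping intervals, and the interval of its ratio for running infarct over running was 1.08 to 1.86. Ackr3 stood at 191, 145 and 153 CPM in the running infarct, sedentary infarct and running libraries, against 294 CPM (258 to 333) in the sedentary library, whose interval overlapped none of the others. Endocardial-like nuclei had 162, 144, 146 and 181 CPM of Ackr3 and 71.4, 79.0, 56.7 and 57.3 CPM of Cxcl16.

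In cardiomyocyte-like nuclei Ackr4 and Cxcr6 cannot be told apart from the genes they overlap, so both are given with them. Ackr4 stood at 87.9 and 79.3 CPM in the running infarct and sedentary infarct libraries, against 162 and 165 CPM in the running and sedentary libraries, and Acad11 stood at 67.7 and 61.3 CPM, against 97.4 and 75.4 CPM. Cxcr6 stood at 57.9 and 50.3 CPM, against 84.2 and 95.9 CPM, while Fyco1 stood at 288 and 302 CPM, against 311 and 323 CPM. Median depth differed in this class, at 2771.5 UMIs in the running infarct library and 8414 to 9473 UMIs in the others. Ackr3 stood at 79.0, 88.2, 105 and 67.6 CPM. In mesothelial-like nuclei Ackr3 stood at 80.7 and 81.9 CPM, against 108 and 133 CPM.

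Lymphocyte classes fell under the limit of 50 nuclei in every library, so their values are given as a description. T cell-like nuclei numbered 125, 50, 16 and 9 in the running infarct, sedentary infarct, running and sedentary libraries. Their Ccl5 UMIs were 16, 10, 12 and 10, or 38.8, 48.9, 203 and 139 CPM. Ccr2 in T cell-like nuclei stood at 179 CPM on 74 UMIs in the running infarct library and 88.1 CPM on 18 UMIs in the sedentary infarct library, against 3 and 5 UMIs in the running and sedentary libraries. Cxcr6 stood at 124, 68.5, 135 and 181 CPM, and its ratio to Fyco1 was highest in this class, at 0.585. B cell-like nuclei numbered 65, 21, 21 and 1, with 20, 8, 6 and 1 Cxcr5 UMIs and 10, 3, 4 and 1 Ccr6 UMIs. The 42 dendritic-like nuclei of all libraries held 92 Ccr2 UMIs, or 383 CPM (309 to 470), and 34 Ccr9 UMIs, or 142 CPM (98.1 to 198), against 10.4 to 46.8 CPM of Ccr9 in the 11 larger classes.

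In total fewer member and class pairs differed at least 2-fold with running than with infarct, and the shares over all genes were lower too. Pairs at least 2-fold higher were 7 of 105 (6.67%) in running infarct over sedentary infarct, against 2.61% of all pairs. In sedentary infarct over sedentary they were 7 of 104 (6.73%), against 4.44%. Between the infarct libraries Ccr2 in macrophage-like nuclei did not differ beyond its interval (219 and 247 CPM in running infarct and sedentary infarct). Higher in running infarct than in sedentary infarct were Cx3cr1 and Cxcl16, the second at 1.32-fold (1.07 to 1.63) in macrophage-like nuclei, and Cxcl16 at 1.82-fold (1.28 to 2.61) and Ackr3 at 1.33-fold (1.16 to 1.53) in fibroblast-like nuclei. Lower were Ccl6 at 1.57-fold in macrophage-like nuclei, where the ratio was 0.638 (0.484 to 0.844), Cxcl1 at 2.38-fold in fibroblast-like nuclei (1.42 to 4.17) and Ackr2 at 2.93-fold in vascular endothelial-like nuclei (1.54 to 5.77).

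Without infarct, running over sedentary gave Cxcl1 1.71-fold higher in fibroblast-like nuclei (1.37 to 2.13) and Ccl6 1.58-fold higher (1.11 to 2.28) in macrophage-like nuclei. Ackr3 was 1.55-fold higher in cardiomyocyte-like nuclei (1.36 to 1.76) and stood at 0.521 of the sedentary level in lymphatic endothelial-like nuclei (0.431 to 0.630). Over all fibroblast-like nuclei Cxcl1 thus stood highest in the running and lowest in the running infarct library. In fibroblast-like nuclei without Y-linked UMIs it stood at 28.1 CPM in the running and 33.3 CPM in the sedentary library, and in those with at least 2 at 54.9 and 18.7 CPM, so the running difference did not hold within both sets of nuclei. Nor did it remain with at most 5% mitochondrial UMIs, where Cxcl1 stood at 26.6 CPM, on 16 UMIs of 133 nuclei, in the running and 26.3 CPM in the sedentary library. Cxcl5, a neutrophil attractant, stood at 12.0 CPM in the running and 5.28 CPM in the sedentary library, 2.27-fold higher (1.44 to 3.68), but its log2 ratio of 1.18 was 0.09 in nuclei without Y-linked UMIs and -2.09 with at most 5% mitochondrial UMIs, where 1 Cxcl5 UMI was left in the running library.

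Ccl21a UMIs outside lymphatic endothelial-like nuclei followed the running library across classes. Macrophage-like nuclei had 19.2, 17.4, 123 and 40.0 CPM in the running infarct, sedentary infarct, running and sedentary libraries, and mesothelial-like nuclei 11.8, 11.9, 86.0 and 18.7 CPM. Vascular endothelial-like nuclei had 30.3, 22.6, 74.1 and 39.9 CPM, and cardiomyocyte-like nuclei, which should lack the gene, 17.7, 8.4, 30.5 and 11.3 CPM. The running library was highest in all of the 8 compared classes apart from lymphatic endothelial-like nuclei, where the sedentary library was. In cardiomyocyte-like nuclei these levels were 2.99, 1.05, 3.16 and 1.12% of those in lymphatic endothelial-like nuclei of the same library, and in macrophage-like nuclei 3.26, 2.17, 12.8 and 3.96%. Ccl21a also lies within an intron of 4930578G10Rik on the opposite strand, whose level in macrophage-like nuclei was 15.5, 22.3, 45.4 and 62.3 CPM and in cardiomyocyte-like nuclei 7.36, 5.50, 19.8 and 17.99 CPM. The parts of free RNA and of this gene in the Ccl21a counts were not tested, and no difference of Ccl21a outside lymphatic endothelial-like nuclei is read as one of expression.

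Other genes of the pathway were followed in macrophage-like, fibroblast-like and vascular endothelial-like nuclei. Of 34 genes of receptor signal transduction, 32 were measured in macrophage-like nuclei. Of these 4 were at least 2-fold higher in each infarct comparison with 0 lower, against 6.29% and 6.15% of all genes higher. The 32 had a median log2 ratio of 0.24 for running infarct over running and 0.19 for sedentary infarct over sedentary, beside -0.02 and 0.04 over all genes. In vascular endothelial-like nuclei 4 of 25 and 5 of 24 were higher with 0 lower, against 3.19% and 3.43%. The medians in this class were 0.36 and 0.21, beside -0.08 and 0.01. In fibroblast-like nuclei 2 of 26 and 2 of 27 were higher, against 4.82% and 4.44%, and 1 and 0 lower, against 4.74% and 3.59%. In macrophage-like nuclei the Src-family kinase gene Fgr stood at 130 and 96.7 CPM in the running infarct and sedentary infarct libraries. The running and sedentary libraries had 25.4 and 22.2 CPM, so it was 5.11-fold (2.98 to 9.51) and 4.35-fold higher (2.24 to 9.42) with infarct. Ptk2b, a calcium-dependent kinase downstream of CXCR4, was 2.69-fold (2.08 to 3.52) and 2.24-fold higher (1.67 to 3.05) in macrophage-like nuclei. In fibroblast-like nuclei Ptk2b stood at 40.5 and 29.8 CPM in the infarct libraries, against 5.40 and 4.69 CPM, 7.51-fold (5.09 to 11.4) and 6.35-fold higher (4.09 to 10.2).

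Genes that retain or degrade chemokines were counted in the same way. Of 11 such genes all were measured in fibroblast-like nuclei, where 0 were at least 2-fold higher with infarct and 2 and 1 were lower in the running and sedentary comparisons, against 4.74% and 3.59% of all genes. In macrophage-like nuclei 2 of 10 and 1 of 9 were higher with 0 lower, against 6.29% and 6.15% of all genes higher. In vascular endothelial-like nuclei 1 of 10 and 1 of 9 were higher, against 3.19% and 3.43%, and 1 and 0 lower, against 5.44% and 4.26%. Mmp14, a membrane metalloproteinase, was 6.25-fold higher in macrophage-like nuclei of running infarct than of running (2.34 to 23.5) and 4.68-fold higher in vascular endothelial-like nuclei of sedentary infarct than of sedentary (2.80 to 8.08). In fibroblast-like nuclei Mme, a membrane peptidase, stood at 16.4 and 28.7 CPM in the infarct libraries, against 79.8 and 81.2 CPM. That is 4.86-fold (3.71 to 6.47) and 2.83-fold lower (2.32 to 3.46). Dpp4, a peptidase that trims CXCL12, was 4.45-fold higher in macrophage-like nuclei of running infarct than of running (2.34 to 9.50) and 1.87-fold lower in fibroblast-like nuclei of sedentary infarct than of sedentary (1.57 to 2.24). The 15 genes tied to the induction of chemokine genes were all measured in these classes of the infarct comparisons. In macrophage-like nuclei 2 were at least 2-fold lower for sedentary infarct over sedentary, against 3.64% of all genes. In vascular endothelial-like nuclei 2 were lower for running infarct over running, against 5.44%. Each other class and direction had at most 1, against 3.19 to 6.29% of all genes. Hif1a was 1.97-fold (1.64 to 2.37) and 2.02-fold higher (1.64 to 2.48) in vascular endothelial-like nuclei, and Cebpb stood at 0.472 of the sedentary level in fibroblast-like nuclei of sedentary infarct (0.367 to 0.605). Of 12 chemokine ligands and receptors under other symbols, 6 to 8 were measured in each class. Each class of each infarct comparison had 0 higher and at most 1 lower, against 3.19 to 6.29% and 3.59 to 5.44% of all genes. Rarres2, the chemerin gene, was 2.72-fold (2.19 to 3.41) and 1.92-fold lower (1.60 to 2.31) with infarct in fibroblast-like nuclei, and Pf4 was 2.72-fold lower in macrophage-like nuclei of running infarct than of running (1.72 to 4.28).

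Comparisons between libraries were possible for 37 of the 52 members, and 15 had too few UMIs in every compared class. Among these 15, Ccr4, Ccr6, Cxcr3, Cxcl11, Cxcl13, Ccl3, Cxcl15, Ccl26, Ccl1, Ccl21d and Cxcl3 had 21 to 63 UMIs over all barcodes, Ccr7, Ccr10 and Ccl28 had 80 to 146, and Ccl5 had 213, with 48 of its UMIs in T cell-like nuclei. Ackr1 had 7 UMIs in fibroblast-like nuclei of the running infarct library and 27 in those of the running library, or 1.92 and 4.56 CPM. Cxcr2, a receptor of neutrophils, lay between 2.55 and 5.35 CPM in all 11 classes, with no class above the others beyond counting error, and Ccrl2 and Ccl27a lay below 14 CPM in every class.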

How the data were processed

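Single-nucleus RNA of mouse ventricles was captured with 10x Genomics 3' v3.1 chemistry in 4 libraries, 1 per group, each from pooled hearts. The authors deposited filtered matrices of raw UMI counts per gene and barcode, made with Cell Ranger 7.1 on GRCm39 per the submitters' processing notes; the handling of introns and strand is not given in the sources used here. Libraries held 3243 to 6253 barcodes and 26170995 to 37533722 UMIs.

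Barcodes needed 300 genes or more, and a mitochondrial share of UMIs no higher than 20%. Scrublet's automatic threshold called 1 doublet in all, so the highest-scoring 0.8% per 1000 barcodes were removed in each library. Counts were clustered with scanpy 1.11.5 and leidenalg 0.10.2 (Python 3.11.15) on 3000 variable genes, 40 components and 15 neighbours at resolution 1. The members were left out of the variable genes, while chemokine and receptor genes under other symbols could enter. Clusters were named from marker lists; those with markers of several classes, or low depth without leading markers, stayed unnamed.

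Raw counts were summed per class and library and divided by the sum without mitochondrial genes. Exact Poisson intervals for levels, conditional binomial intervals for ratios and Clopper-Pearson intervals for shares cover counting error at 95%. Zero counts were set to 3 for bounds. Counts of higher and lower members used ratios of 2-fold or more with at least 20 UMIs in the pair; smaller ratios are given as higher or lower where their interval excludes 1. Shares of nuclei were also taken after thinning to 1000 UMIs. No test between groups was possible. The scripts were tested on simulated counts.

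Genes named among other pathway genes were drawn from the up to 4 per list and comparison whose counting interval lay farthest beyond even. Values of 1 member are not reported here, though counts over all members include it. Members and lists were chosen with earlier results of these data known. Promoter letters came from RefSeq tables of GRCm38.p6, whose coordinates were not mixed with those of the counts. Alternatives covered the mitochondrial and gene filters, cluster resolution, weighting of nuclei, nuclei with and without Y-linked UMIs, the UMI minimum, the unnamed macrophage cluster, low-depth clusters and the nucleus with most UMIs.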

Additional observations from a re-analysis of the deposited data

How the results depend on the processing

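Of 420 values (35 ratios under 12 alternatives each), 416 kept their direction, 369 of them within the counting interval. The 35 ratios were picked from these data as at least 2-fold apart, with an interval excluding 1 and at least 50 UMIs in the pair. Several alternatives reuse nearly the same nuclei, so a kept direction is no independent support. Of the 35 ratios, 17 left that interval in Y-positive nuclei, 9 each in Y-negative nuclei and with at most 5% mitochondrial UMIs (beside the reversals), and 7 with the mixed macrophage cluster counted, against 0 to 3 under each other alternative. The 4 reversals were the log2 ratio of Ccl12 in macrophage-like nuclei for sedentary infarct over sedentary (0.74 with at most 5% mitochondrial UMIs and 0.37 in Y-negative nuclei, in place of -1.08) and for running infarct over running (-0.18 with the mixed macrophage cluster counted, in place of 1.60), and of Cxcl5 in fibroblast-like nuclei for running over sedentary (-2.09 with at most 5% mitochondrial UMIs, in place of 1.18). The cause was not tested.

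Counts of pairs 2-fold apart depended on the settings, which also change how many pairs can be compared. Shares over all genes were taken for the main setting only, so the counts below have no such share beside them. With at least 50 UMIs per pair, and then with at least 10, sedentary infarct over sedentary gave 4 and 12 higher pairs and 9 and 29 lower ones. Running infarct over running gave 4 and 28 higher and 12 and 34 lower, running infarct over sedentary infarct 1 and 14 higher and 1 and 14 lower. Running over sedentary gave 16 higher at 10 UMIs, and 0 and 13 lower. With at most 5% mitochondrial UMIs, running infarct over running gave 8 higher and 11 lower, and running infarct over sedentary infarct 10 lower. Y-positive nuclei gave 4 higher for sedentary infarct over sedentary, 7 higher for running infarct over running and 0 lower for running infarct over sedentary infarct; Y-negative nuclei gave 7 higher and 9 lower in the last 2 of these. Running infarct over sedentary infarct also gave 4 higher with at least 800 genes, 13 higher with nuclei weighted equally and 2 lower with the mixed cluster counted. That last setting, leaving out low-depth clusters and leaving out the nucleus with most UMIs were chosen after seeing the data. No paired analysis was possible because each group has 1 library. Depth limits members under 20 UMIs per pair, and 42.7% of members' UMIs lay in unnamed nuclei.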
